A study of Mus musculus with 12 samples.

Results

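ADAM3 is a sperm surface protein that sperm need to pass from the uterus into the oviduct and to bind the egg coat, and it reaches the sperm surface only after a chain of folding and processing steps in spermatogenic cells. The 8 genes described here, Clgn, Calr3, Pdilt, Tpst2, Tex101, Ly6k, Ace and Prss37, were taken by name because loss of each is known to disturb ADAM3 folding or processing. All 8 were found among the 28643 gene symbols analysed, and all 8 passed the filter on low values in every comparison. In the endoplasmic reticulum (ER), the calnexin-like lectin chaperone calmegin (Clgn), the calreticulin-like calsperin (Calr3) and the testis protein disulfide isomerase-like protein PDILT (Pdilt) act on newly made ADAM proteins. Further along the secretory route, tyrosylprotein sulfotransferase TPST2 sulfates tyrosines, and the lipid-anchored surface proteins TEX101 and LY6K, the testis form of the peptidase ACE, which releases TEX101 from the surface, and the protease-like protein PRSS37 are each needed for mature ADAM3 on sperm.

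Their transcripts were followed in round spermatids, the early haploid cells that later shape the sperm, sorted from testes of 8-week-old male mice. The control animals were heterozygous (Igf2bp3+/-) and the knockout animals homozygous (Igf2bp3-/-) for a frameshift made with Cas9 in the gene for the RNA-binding protein IGF2BP3, so the controls carried the mutation on 1 copy and no library came from wild-type mice. By the study's methods, the knockout males for these experiments were picked for impaired fertility, so they need not stand for all Igf2bp3-/- males. A share of each extract was sequenced as input (RNA-seq), and mRNAs with at least 4 ribosomes, collected from a sucrose gradient, gave the polysomal libraries (RNC-seq, for ribosome nascent-chain complexes). There were 3 replicates for each genotype and assay, 12 libraries in all. The loss of IGF2BP3 was in every cell of these animals, cycloheximide was present during the isolation, and a difference between genotypes can come from the cells sorted as well as from the RNA of each cell. In bulk libraries, fewer cells of a type and less RNA per cell cannot be told apart.

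Values are FPKM, a read density scaled to transcript length and library size, so levels can be compared between genes per length. Between 21490 and 25633 genes lay above 0 in each library, and depth in reads is unknown. One transcript, CT010467.1, held from 5.68% to 19.4% of the summed FPKM. Igf2bp3 mRNA was still present in the knockout: its RNA-seq level was 38.2, 38.6 and 33.4 FPKM in Igf2bp3+/- and 31.7, 32.5 and 31.4 FPKM in Igf2bp3-/- (log2 difference -0.20 ± 0.09 SE, limma adjusted p = 0.335), so mRNA level gives no check of this frameshift. Round spermatid markers were abundant, with a summed level from 766 to 1394 FPKM over the 12 libraries. In RNA-seq that sum was 766 to 877 FPKM in Igf2bp3+/- and 983 to 1136 FPKM in Igf2bp3-/-, and 0 of its 6 genes passed the limit. Markers listed for neighbouring germ cell stages also gave signal. The 5 spermatocyte markers summed to 240 to 268 FPKM in Igf2bp3+/- and 250 to 302 FPKM in Igf2bp3-/- RNA-seq, and the 4 transition protein and protamine genes, listed as elongating spermatid markers, to 8042 to 10389.5 and 9036 to 9214 FPKM, with 0 genes of either list past the limit. Among the lists of other cells, the 6 Leydig cell markers summed to 15.2 to 22.5 FPKM in Igf2bp3+/- and 48.4 to 54.7 FPKM in Igf2bp3-/- RNA-seq, and to 6.71 to 14.3 and 51.4 to 102 FPKM in RNC-seq, with 4 and 1 of the 6 past the limit. The 4 Sertoli cell markers in the table summed to 3.15 to 4.07 and 7.13 to 7.33 FPKM in RNA-seq, and the 6 blood and macrophage markers to 6.74 to 7.26 and 13.7 to 15.4 FPKM, with 1 and 2 genes past the limit. The sums of the 5 spermatogonia markers (5.76 to 8.08 and 5.72 to 7.63 FPKM) and of the 4 peritubular markers (1.10 to 1.29 and 1.01 to 1.34 FPKM) overlapped between genotypes. No marker of these lists was at 0 in all 12 libraries, and their part in the results below was not tested.

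The 8 genes lie on 6 chromosomes of GRCm38 and hold no shared cluster. Clgn (ENSMUSG00000002190, chromosome 8, 83389867 to 83428552, plus strand) and Calr3 (ENSMUSG00000019732, chromosome 8, 72424176 to 72443870, minus strand) are 10945996 bases apart. Pdilt (ENSMUSG00000030968, chromosome 7, 119486587 to 119523489, minus strand) and Tex101 (ENSMUSG00000062773, chromosome 7, 24668007 to 24676675, minus strand) share chromosome 7. The others are Tpst2 (ENSMUSG00000029344, chromosome 5, 112276691 to 112315361, plus strand), Ly6k (ENSMUSG00000044678, chromosome 15, 74796874 to 74799986, minus strand), Ace (ENSMUSG00000020681, chromosome 11, 105967945 to 105989964, plus strand) and Prss37 (ENSMUSG00000029909, chromosome 6, 40514824 to 40519508, minus strand). Prss37 lies on the chromosome of Igf2bp3, 8565714 bases from it. The table gives 1 value per gene and does not separate one start site or splice form from another.

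Germ cells are known to start Ace at an internal site that gives the short testis protein. RefSeq promoter entries, which run from 250 bases before to 50 bases after a start on GRCm38.p6, were found for 6 of the 8 genes. A search of both strands for TGAGGTCA, the cyclic AMP response element variant known from the testis start of Ace, found it in 2 of the 10 promoters of these genes, against 2.17% of all 32851 promoters. One was the internal start of Ace, where the motif begins at position -52 from the start, and the other was a start of Calr3, where it begins at position -220. The motif was chosen from that Ace start, so the Ace match was fixed in advance. The count of 2 of 10 is therefore no test of enrichment. The full palindrome TGACGTCA, a different string that shares no match with it, was in 0 of the 10 and in 1.79% of all promoters. The stretches around both matches are shown with the motif in capitals because these are the starts among the 10 that hold it, and a match is a description only.
Ace, chr11:105975126-105975155, plus strand: acattgctctaTGAGGTCAcactgcaggct
Calr3, chr8:72443980-72444009, minus strand: cttgatcactgTGAGGTCAcctgagtagct

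All of these genes except Tpst2 were well expressed. In Igf2bp3+/- RNA-seq the order of mean levels was Clgn 350.0 FPKM, Prss37 142 FPKM, Pdilt 116 FPKM, Ace 93.9 FPKM, Calr3 40.2 FPKM, Ly6k 17.4 FPKM, Tex101 6.72 FPKM and Tpst2 0.418 FPKM, and no neighbours in that order overlapped. Clgn stood at percentile 99.5 of all genes and Tpst2 at percentile 46.8. In Igf2bp3-/- RNA-seq the order was the same, but Prss37 and Pdilt overlapped. On polysomes of Igf2bp3+/- cells Clgn and Prss37 overlapped, Ace stood above Pdilt, and Pdilt overlapped Calr3 and Calr3 overlapped Ly6k. In Igf2bp3-/- RNC-seq Clgn overlapped Prss37 and Calr3 overlapped Ly6k.

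**Figure D1:**
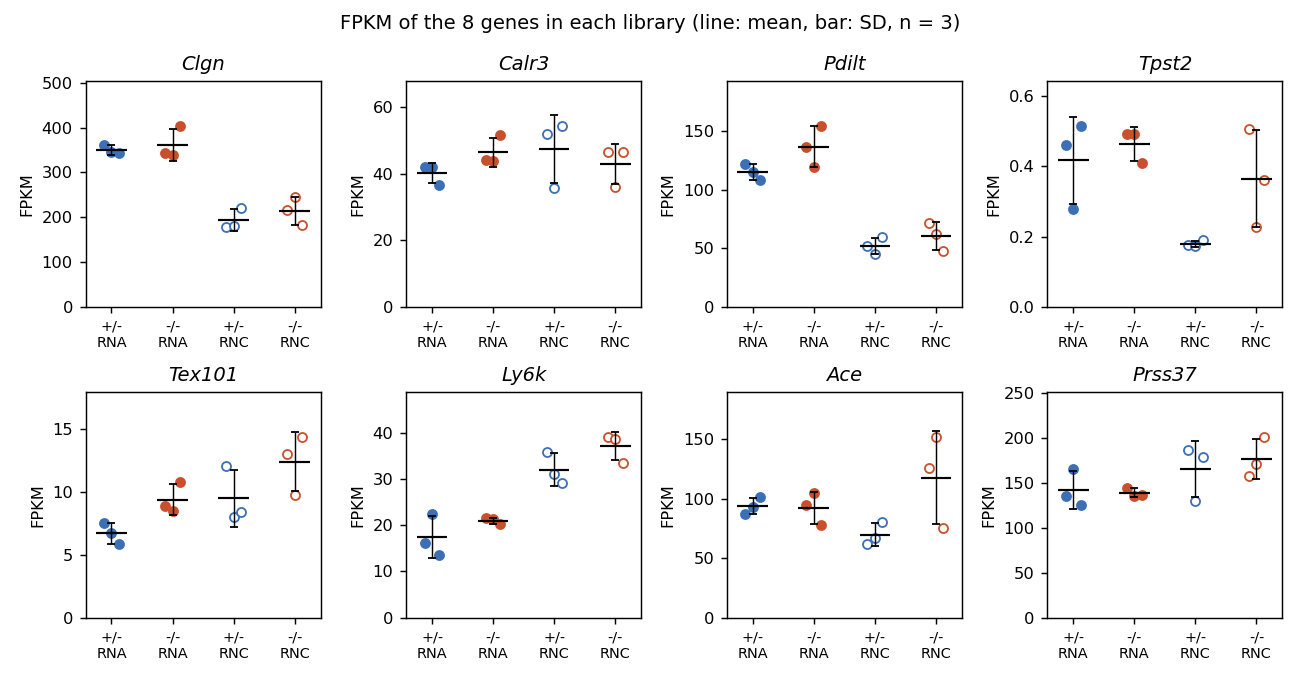
FPKM (linear axis from 0, a separate scale for each gene) of the 8 genes in each of the 12 libraries, blue for Igf2bp3+/- and orange for Igf2bp3-/-, filled for RNA-seq and open for RNC-seq, with the mean as a line and the SD as a bar (n = 3). Clgn and Pdilt are lower and Ly6k is higher in RNC-seq than in RNA-seq in both genotypes, and the Ace RNC-seq libraries of Igf2bp3-/- spread from 75.3 to 152 FPKM.

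The first question was how the level of each transcript on polysomes compared with its input, taken as RNC-seq against RNA-seq within a genotype. Each level is relative to all other transcripts of its library, so the difference is not the share of a transcript on polysomes. The ER factors Clgn and Pdilt were under-represented on polysomes in both genotypes, the surface protein gene Ly6k was over-represented in both, and Ace was lower on polysomes in Igf2bp3+/-. A difference was called at a Benjamini-Hochberg adjusted p under 0.05 over all genes (limma on log2(FPKM + 0.1)). In Igf2bp3+/-, 1 of the 8 was called higher and 3 were called lower, where 18.6% of all 17942 genes tested were called higher and 25.1% lower. In Igf2bp3-/-, 1 of the 8 was called higher and 2 lower, against 10.1% higher and 10.9% lower of 18456 genes. Polysomal and input libraries without overlap were common. In Igf2bp3+/- they were found higher for 2 and lower for 4 of the 8, against 4129 and 5836 of the 17942 genes. In Igf2bp3-/- they were found higher for 2 and lower for 2 of the 8, against 3521 and 3939 of the 18456 genes. The 8 as a group were thus near the background, with a median log2 difference of -0.11 in Igf2bp3+/- (all genes -0.09) and 0.09 in Igf2bp3-/- (all genes -0.04), and what follows concerns single genes.

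Clgn gave 362, 345 and 343 FPKM in Igf2bp3+/- RNA-seq and 178, 180 and 222 FPKM in RNC-seq. All polysomal libraries lay below all input libraries, with a log2 difference of -0.86 ± 0.12 (SE, n = 3 libraries a group, limma adjusted p = 7.52e-04). In Igf2bp3-/- the values were 343, 338 and 403 FPKM in input and 216, 245 and 182 FPKM on polysomes, again without overlap, and the difference was -0.76 ± 0.17 (limma adjusted p = 0.0152). Calmegin is the lectin chaperone on which assembly of the ADAM1A and ADAM2 pair depends.

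Pdilt, whose protein works together with calmegin, showed the largest fall of the 8 genes in both genotypes. Its input levels were 123, 115 and 109 FPKM and its polysomal levels 52.0, 45.1 and 59.4 FPKM in Igf2bp3+/-. In Igf2bp3-/- they were 137, 120 and 154 FPKM against 71.5, 62.6 and 47.6 FPKM. Polysomal and input libraries did not overlap in either genotype, and the log2 differences were -1.15 ± 0.13 (limma adjusted p = 2.93e-04) and -1.19 ± 0.19 (limma adjusted p = 0.00501). Of Pdilt's exonic bases 13.4% are overlapped by Gm37518 and Acsm5 on the other strand, which reached at most 0.278 and 0.251 FPKM.

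Calr3, the third ER factor, was not past the limit in either genotype. It gave 42.0, 42.1 and 36.6 FPKM in input and 52.1, 35.7 and 54.3 FPKM on polysomes of Igf2bp3+/-, and 44.3, 43.8 and 51.6 FPKM against 46.6, 36.1 and 46.4 FPKM in Igf2bp3-/-. Input and polysomal libraries overlapped in both, with log2 differences of 0.21 ± 0.17 (limma adjusted p = 0.353) and -0.12 ± 0.17 (limma adjusted p = 0.664), and the first turned to -0.01 when FPKM was rescaled without the top transcript. Whether Calr3 differs from Clgn or Pdilt in this respect was not tested as such.

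Tpst2 was scarce, so its fold changes depend on the pseudocount. The libraries of Igf2bp3+/- gave 0.460, 0.278 and 0.515 FPKM in input and 0.177, 0.173 and 0.190 FPKM on polysomes, with no overlap and a log2 difference of -0.86 ± 0.32 that missed the limit (limma adjusted p = 0.0579). In Igf2bp3-/- they gave 0.493, 0.492 and 0.409 FPKM against 0.507, 0.229 and 0.361 FPKM, which overlap (-0.32 ± 0.32, limma adjusted p = 0.515). The Igf2bp3+/- difference passed the limit without the intensity trend (limma adjusted p = 0.0197), with a shared fit over all 12 libraries (0.0350) and with FPKM rescaled without the top transcript (0.0318).

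Among the lipid-anchored surface proteins Ly6k and Tex101, which bind each other, Ly6k was past the limit in both genotypes. Ly6k gave 16.2, 22.5 and 13.5 FPKM in input and 35.9, 31.0 and 29.1 FPKM on polysomes of Igf2bp3+/-, and 21.4, 21.2 and 20.2 FPKM against 39.1, 38.5 and 33.5 FPKM in Igf2bp3-/-. Every polysomal library lay above every input library, and the log2 differences were 0.90 ± 0.19 (limma adjusted p = 0.00552) and 0.82 ± 0.15 (limma adjusted p = 0.00807). On the other strand Gm17189 overlaps 47.6% of its exonic bases and reached at most 0.778 FPKM. Tex101 gave 7.55, 6.74 and 5.86 FPKM in input and 12.1, 8.03 and 8.41 FPKM on polysomes of Igf2bp3+/-, where libraries did not overlap but the difference of 0.48 ± 0.19 missed the limit (limma adjusted p = 0.0749), although it was passed with each library centred on its median (0.0104), with quantile normalization (0.0203) and with the replicate number as a block (0.0473). In Igf2bp3-/- its values were 8.87, 8.53 and 10.8 FPKM in input and 13.1, 9.81 and 14.4 FPKM on polysomes, which overlapped (0.39 ± 0.20, limma adjusted p = 0.196).

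The peptidase gene Ace gave 87.4, 93.1 and 101 FPKM in input and 62.3, 66.7 and 80.6 FPKM on polysomes of Igf2bp3+/-. Polysomal libraries lay below the input libraries, with a log2 difference of -0.43 ± 0.13 (limma adjusted p = 0.0283). This call was lost with each library centred on its median (-0.27, adjusted p = 0.174), with no intensity trend (0.0757), in a shared fit over all 12 libraries (0.123) and without Igf2bp3+/- replicate 1 (0.131) or replicate 2 (0.114). Gm11651 overlaps 5.58% of the exonic bases of Ace on the other strand and gave 4.41 to 6.83 FPKM in RNA-seq and 7.09 to 10.1 FPKM in RNC-seq. In Igf2bp3-/- Ace gave 94.7, 105 and 78.1 FPKM in input and 126, 152 and 75.3 FPKM on polysomes, with overlap (0.30 ± 0.25, limma adjusted p = 0.437). Ace is also made by endothelial cells, whose 2 markers in the table summed to between 0.0532 and 0.193 FPKM in these libraries. Other somatic lists were higher in Igf2bp3-/- RNC-seq. Leydig markers summed to 6.71 to 14.3 FPKM in Igf2bp3+/- and 51.4 to 102 FPKM in Igf2bp3-/-. Blood and macrophage markers summed to 11.4 to 14.6 and 16.2 to 33.8 FPKM. Which cells gave the Ace RNA was not tested. Prss37 gave 135, 165 and 125 FPKM in input and 187, 129 and 179 FPKM on polysomes of Igf2bp3+/- (0.21 ± 0.17, limma adjusted p = 0.361), and 144, 135 and 137 FPKM against 157, 171 and 201 FPKM in Igf2bp3-/- (0.34 ± 0.16, limma adjusted p = 0.155). Only in Igf2bp3-/- did its libraries not overlap, and the Igf2bp3+/- difference ranged from -0.03 under quantile normalization and -0.02 with FPKM rescaled without the top transcript to 0.37 when centred (adjusted p = 0.0474) and 0.49 without Igf2bp3+/- replicate 2 (adjusted p = 0.0280).

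**Figure D2:**
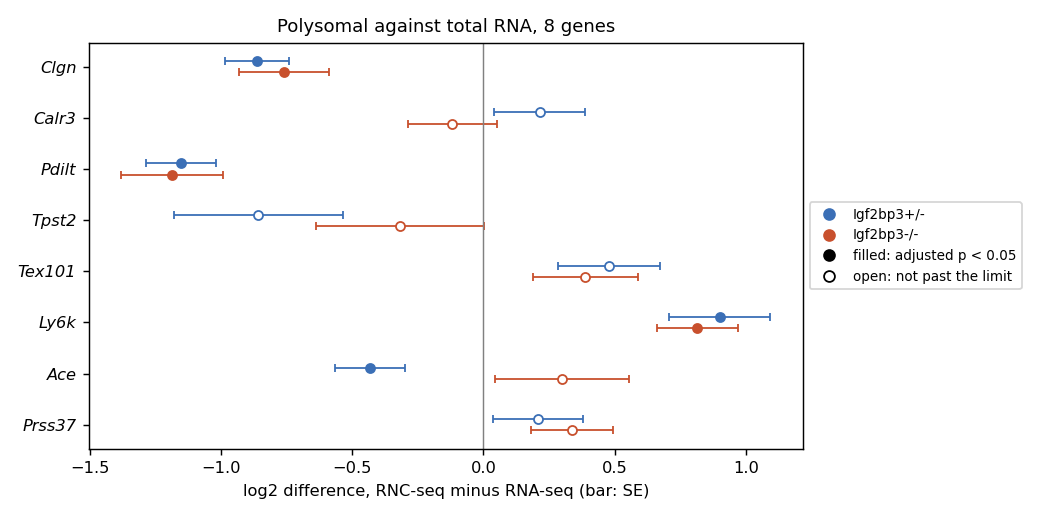
Log2 difference of RNC-seq minus RNA-seq (x axis, log2 scale, bars SE, n = 3 libraries a group) for the 8 genes in Igf2bp3+/- (blue) and Igf2bp3-/- (orange), filled where the adjusted p is under 0.05. Clgn and Pdilt lie between -1.19 and -0.76 in both genotypes, Ly6k lies at 0.90 and 0.82, and Ace is on opposite sides of 0 in the 2 genotypes.

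Calls in Igf2bp3-/- rested on particular libraries. Without Igf2bp3-/- replicate 1, 0 of the 8 were called and only 3 genes of the whole table were, and without replicate 3 the counts were 0 and 1, while Clgn, Pdilt and Ly6k kept their direction. In Igf2bp3+/-, without replicate 1 the call of Ly6k was lost too (adjusted p = 0.0676), leaving 2 of the 8. Scaling matters for the whole table: with each library centred on its median, the calls over all genes in Igf2bp3+/- went from 3331 higher and 4503 lower to 4630 higher and 3655 lower.

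The second question was whether loss of IGF2BP3 changed these transcripts. None of the 8 was called between genotypes in RNA-seq (0.256% of 20352 genes were), in RNC-seq (0.115% of 19051 genes) or in translational efficiency (TE), taken as the change between genotypes in RNC-seq less that in RNA-seq (0.00543% of 18414 genes). At an unadjusted p under 0.05, 1 of the 8 was higher in RNA-seq (10.4% of all genes), 1 in RNC-seq (5.36%) and 1 in TE (5.54%) and none was lower. These were Tex101 in RNA-seq and Ace in RNC-seq and TE. The median log2 difference over the 8 was 0.18 in RNA-seq (all genes 0.05), 0.21 in RNC-seq (all genes 0.13) and 0.03 in TE (all genes 0.06). The RNC-seq median was 0.066 to 0.090 under the other 3 scalings, and the TE median was -0.095 after median centring.

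**Figure D3:**
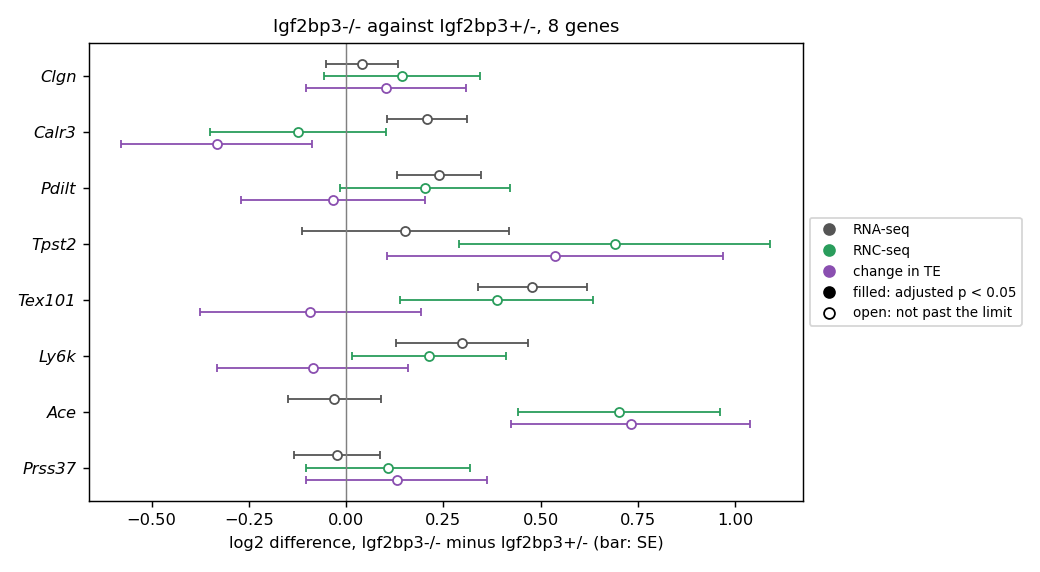
Log2 difference of Igf2bp3-/- minus Igf2bp3+/- (x axis, log2 scale, bars SE, n = 3 libraries a group) for the 8 genes in RNA-seq (grey), RNC-seq (green) and TE (purple), with open points for differences not past the limit. All points are open, and the highest are Ace in RNC-seq at 0.70, Ace in TE at 0.73 and Tpst2 in RNC-seq at 0.69.

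In the input RNA, Tex101 was the member with the lowest p. Its 3 Igf2bp3-/- libraries, at 8.53 to 10.8 FPKM, all lay above the 3 of Igf2bp3+/-, at 5.86 to 7.55 FPKM (log2 difference 0.48 ± 0.14, limma adjusted p = 0.201). Calr3 was the other gene with no overlap (0.21 ± 0.10, limma adjusted p = 0.365). Non-overlapping higher libraries in RNA-seq were found for 14.1% of all genes. Beside this, the RNA-seq log2 differences were positive for 6 of 6 round spermatid, 5 of 5 spermatocyte and 6 of 6 Leydig markers. They were also positive for 3 of 3 tested Sertoli and 6 of 6 blood and macrophage markers. They were positive for 1 of 4 elongating spermatid, 2 of 4 tested spermatogonia and 1 of 3 tested peritubular markers. Over all genes tested, 11428 of 20352 were positive. Pdilt (0.24 ± 0.11, limma adjusted p = 0.332) and Ly6k (0.30 ± 0.17, adjusted p = 0.427) overlapped between genotypes. Clgn (0.04 ± 0.09), Ace (-0.03 ± 0.12), Prss37 (-0.02 ± 0.11) and Tpst2 (0.15 ± 0.27) lay within 1 SE of 0, and Clgn turned to -0.11 under quantile normalization and -0.08 with FPKM rescaled without the top transcript.

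On polysomes, Ace and Tpst2 had the largest fitted differences, and neither passed the limit. The Ace libraries gave 62.3, 66.7 and 80.6 FPKM in Igf2bp3+/- and 126, 152 and 75.3 FPKM in Igf2bp3-/-, so that replicate 3 of Igf2bp3-/- lay inside the range of the controls. The log2 difference was 0.70 ± 0.26 (limma adjusted p = 0.736), and leaving out single libraries gave 0.49 (adjusted p = 0.887, without Igf2bp3-/- replicate 2) to 0.99 (adjusted p = 0.249, without Igf2bp3-/- replicate 3). Tpst2 was 0.173 to 0.190 FPKM in Igf2bp3+/- and 0.229 to 0.507 FPKM in Igf2bp3-/- with no overlap (0.69 ± 0.40, limma adjusted p = 0.808), and its difference was 0.21 with a pseudocount of 1. Higher libraries with no overlap were found for 9.44% of all genes in RNC-seq. Tex101 (0.39 ± 0.25), Ly6k (0.21 ± 0.20), Pdilt (0.20 ± 0.22), Clgn (0.14 ± 0.20), Prss37 (0.11 ± 0.21) and Calr3 (-0.12 ± 0.23) overlapped between genotypes, and Prss37 turned to between -0.03 and -0.01 under the other 3 scalings.

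Translational efficiency joined both assays. The Ace difference was 0.73 ± 0.31 (limma adjusted p = 0.686) and kept its sign under all 15 alternatives, from 0.60 to 0.91, with none past the limit. Tpst2 followed at 0.54 ± 0.43 and Calr3 was lowest at -0.33 ± 0.25 (limma adjusted p = 0.775 and 0.761). The other 5 genes lay between -0.09 and 0.13.

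ADAM3 itself, the protein these factors serve, and its ADAM relatives were taken as a first further list of 8 genes. Adam3 gave 415, 443 and 457 FPKM in input and 315, 262 and 384 FPKM on polysomes of Igf2bp3+/-, and 453, 456 and 514 FPKM against 310, 350 and 272 FPKM in Igf2bp3-/-. Polysomal libraries lay below input libraries in both genotypes, with log2 differences of -0.47 ± 0.15 (limma adjusted p = 0.0319) and -0.61 ± 0.16 (adjusted p = 0.0275), and the first call was lost with each library centred on its median (adjusted p = 0.0991). In Igf2bp3+/-, 3 of the 8 fell, against 25.1% of all genes, and none rose. These were Adam1a (-0.37) and Adam1b (-0.72) beside Adam3, and the Adam1a call was lost under the same centring (limma adjusted p = 0.311). Gm42878 overlaps exons of Adam1a and matches its transcript at 99.9% identity, so reads of Adam1a could be split between them. Gm42878 reached at most 0.322 FPKM in RNA-seq and 0 FPKM in RNC-seq. In Igf2bp3-/-, 2 of the 8 fell, against 10.9% of all genes. They were Adam3 and Adam5 (-0.61), and Adam4 was the least negative at -0.25. Adam2, at 0.02 in Igf2bp3+/-, turned to -0.31 under quantile normalization (limma adjusted p = 0.0303). Calls were also gained with FPKM rescaled without the top transcript. In Igf2bp3+/- these were Adam4, Adam5 and Adam6a (limma adjusted p = 0.0144, 0.00651 and 0.0338), where 5947 of 17942 genes fell. In Igf2bp3-/- they were Adam1b, Adam2, Adam6a and Adam6b (limma adjusted p = 0.0366, 0.0360, 0.0223 and 0.0129), where 3236 of 18456 fell.

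A second list held 7 further genes whose loss is known to affect ADAM3 on sperm. On polysomes 4 of the 7 rose in Igf2bp3+/- and 1 in Igf2bp3-/-, against 18.6% and 10.1% of all genes, and none fell, while 3 and 6 of the 7 did not pass the limit. The rise was largest for 1700029I15Rik, at 58.7, 49.8 and 34.2 FPKM in input and 98.2, 109 and 75.8 FPKM on polysomes of Igf2bp3+/- (log2 difference 1.00 ± 0.21, limma adjusted p = 0.00545), and 1.05 ± 0.25 in Igf2bp3-/- (adjusted p = 0.0183). Pmis2 (0.66), Rnase10 (0.81) and Cmtm2b (0.66) were the other 3 in Igf2bp3+/-, and Pmis2 missed the limit with FPKM rescaled without the top transcript (adjusted p = 0.0546). Prss55 was the lowest in Igf2bp3+/- at 0.13 and turned to -0.10 under that rescaling, and Cmtm2a was the lowest in Igf2bp3-/- at -0.02, turning to 0.02 when centred. In Igf2bp3+/- Lypd4, at 0.25, and Cmtm2a, at 0.21, turned to -0.10 and -0.16 under quantile normalization.

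The third list held 8 general folding and sulfation enzymes of the secretory pathway that most cells use, among them relatives of Clgn (Canx), Calr3 (Calr), Pdilt (Pdia3, P4hb) and Tpst2 (Tpst1). In Igf2bp3+/-, 6 of the 8 fell on polysomes, against 25.1% of all genes, and none rose. In Igf2bp3-/- 4 of the 8 fell, against 10.9% of all genes. The ER HSP90 gene Hsp90b1 gave 149, 137 and 120 FPKM in input and 43.3, 33.5 and 53.0 FPKM on polysomes of Igf2bp3+/-, the largest fall of the list (-1.66 ± 0.18, limma adjusted p = 1.97e-04), and -1.66 ± 0.18 in Igf2bp3-/- (adjusted p = 0.00161). Hspa5, the ER HSP70 BiP, stood at -1.41 and -1.46, Canx, calnexin, at -0.82 and -0.68, and Tpst1, the sister enzyme of TPST2, at -0.72 and -0.57, called in both genotypes. P4hb (-0.84) and the glucosyltransferase gene Uggt1 (-1.38) were called in Igf2bp3+/- alone, at -0.45 and -0.98 in Igf2bp3-/-. Uggt1 was scarce, at 0.684, 0.437 and 0.426 FPKM in input and 0.107, 0.167 and 0.125 FPKM on polysomes of Igf2bp3+/-. These polysomal levels are near the pseudocount of 0.1. Calr, calreticulin, was nearest 0 at -0.10 and -0.03, and turned to 0.06 and 0.01 when centred.

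**Figure D4:**
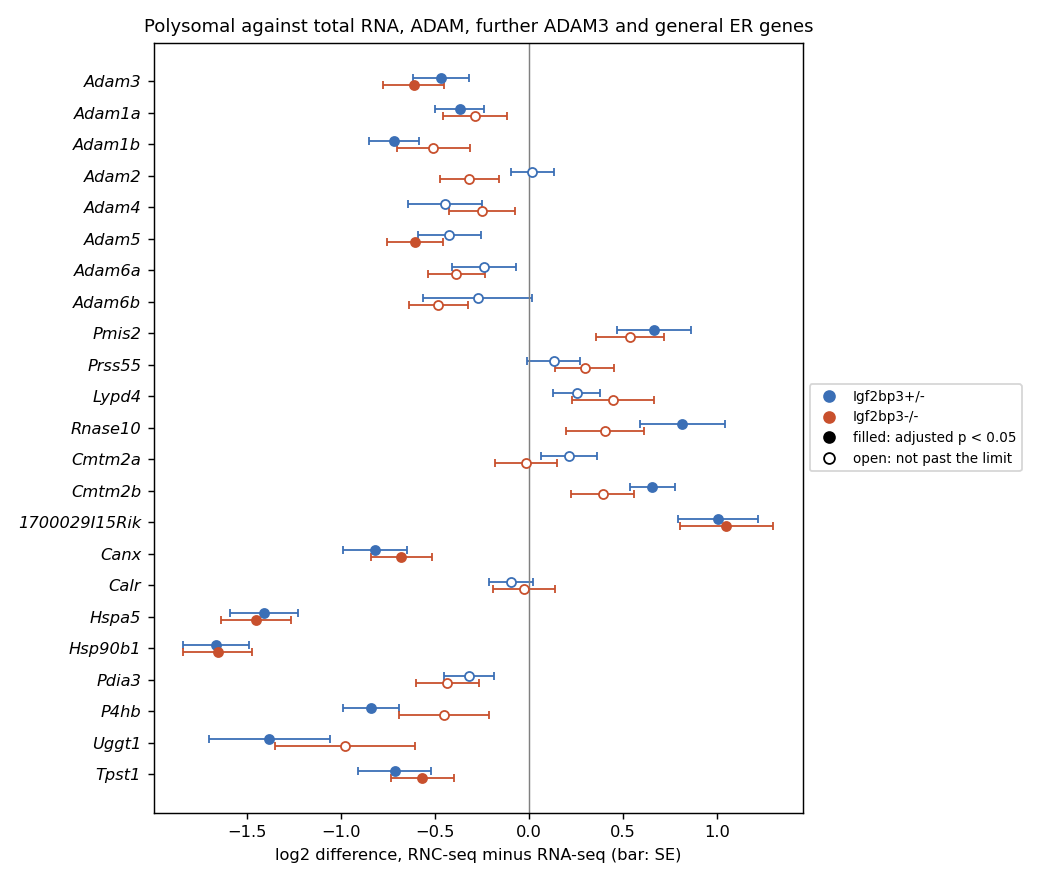
Log2 difference of RNC-seq minus RNA-seq (x axis, log2 scale, bars SE, n = 3 libraries a group) for 8 ADAM genes, 7 further ADAM3 factors and 8 general ER enzymes, from top to bottom, in Igf2bp3+/- (blue) and Igf2bp3-/- (orange), filled where the adjusted p is under 0.05. Filled points of the ADAM and ER genes lie below 0, down to -1.66 for Hsp90b1, and filled points of the 7 further factors lie above 0, up to 1.05 for 1700029I15Rik.

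Between genotypes, 0 genes of any of the 3 lists were called in RNA-seq, RNC-seq or TE. In RNA-seq the ends of the ADAM list were Adam6b at 0.26 and Adam1b at -0.06, those of the further factors 1700029I15Rik at 0.33 and Prss55 at -0.13, and those of the ER enzymes Calr at 0.27 and the scarce Uggt1 at -0.37. At an unadjusted limma p under 0.05 in RNA-seq, 1 of 8 ADAM genes, 3 of 7 further factors and 1 of 8 ER enzymes were higher. That compares with 10.4% of all genes, and no list gene was lower. At the same limit in RNC-seq only the ER enzyme gene P4hb was higher, against 5.36% of all genes, and none was lower. In RNC-seq the ends were Adam4 at 0.32 and Adam2 at -0.21, Lypd4 at 0.45 and Rnase10 at -0.16, and P4hb at 0.60 and Hspa5 at -0.09. In TE they were Adam1b at 0.21 and Adam2 at -0.33, Lypd4 at 0.19 and Rnase10 at -0.41, and the scarce Uggt1 at 0.40 and Pdia3 at -0.12.

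The mean pattern of the 8 genes over the 12 libraries, each gene centred on its own mean log2 level, was nearest to those of Ceacam2, Stx5a and Tbc1d19 among 12258 genes with a mean of at least 1 FPKM. Their root mean square distances were 0.0546, 0.0651 and 0.0683 on the log2 scale. The members themselves lay farther from their own mean, from 0.211 for Calr3 to 0.535 for Pdilt, so the mean pattern describes few of them.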

How the data were processed

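RNA-seq and RNC-seq of sorted round spermatids were given as a single deposited table of FPKM. According to the labels and the study's methods, the authors trimmed reads with Trim Galore 0.6.6, aligned them with HISAT2 to GRCm38 and quantified them with StringTie 2.1.7 to FPKM. The annotation release is not given in the sources used here. The labels name a directional poly(A) kit and the methods a full-length protocol, and whether strand was used in counting is not given, so reads of overlapping genes on opposite strands may not be told apart. Of 28668 symbols, 25 had become dates and were left out (0.0995% of FPKM).

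Values were analysed as log2(FPKM + 0.1), which understates changes of low genes, with limma 3.58.1 in R 4.3.3. Genes with a mean above 0.1 FPKM were kept, in both assays where both entered. Tests were two-sided with trended moderation and Benjamini-Hochberg adjustment over all genes, limit 0.05. Genotypes were compared within each assay, assays within each genotype, and TE as the interaction over 12 libraries. Depth is unknown, so no counting interval was computed. The test was tested on simulated data. Positions came from GENCODE M21 and copies were sought with BLAST 2.17.0. The 8 members and all lists were chosen with earlier results of these data known. Named were all members, list genes past the limit and the highest and lowest of each list per comparison, and the 3 nearest profiles.

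Not every pair of same-numbered libraries deviated together (correlations of -0.104 to 0.205 between assays, -0.0801 to 0.0484 between genotypes in RNA-seq and -0.083 to 0.241 in RNC-seq). Differently numbered libraries were not correlated for comparison, so these values cannot decide whether equal numbers mark pairs. The main fits had no replicate block. Alternatives were 2 pseudocounts, 2 filters, 3 scalings, no trend, a shared fit, a replicate block, the criterion of the study's methods and leaving out each replicate. By the study's methods input and polysomal RNA were taken from the same extract, but the labels do not say that equal numbers mark one extract. The criterion with a fold of 1.5 was added after seeing the data.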

Additional observations from a re-analysis of the deposited data

How the results depend on the processing

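Of the alternatives to the 8 genes' log2 differences, 536 kept direction and side of the limit, 8 newly passed the limit, 12 lost it and 23 turned sign, the last all for differences that were not called. The cause was not tested. The number of the 8 called in Igf2bp3+/- polysome loading, 4 with all libraries, was 0 under an unadjusted p under 0.05 with a log2 change over 1.5, the wording of the study's methods, as was that in Igf2bp3-/-. A figure legend of the study instead gives a fold of 1.5. That limit, added after seeing the data, called 4 (Tpst2 in place of Ace) and 3, against 7709 of 17942 and 5520 of 18456 genes. Between genotypes it called only Ace in RNC-seq and TE (1102 of 19051 and 1207 of 18414) and 0 of the 8 in RNA-seq (1109 of 20352). Depending on the replicate left out, 2 to 4 and 0 to 3 were called at the adjusted limit. With the replicate block, 5 and 3 (7678 and 4123 of all genes) were called, Tex101 being added (adjusted p = 0.0473). Between genotypes no member was, against 4, 31 and 0 of all genes in RNA-seq, RNC-seq and TE. The RNA-seq median of the 8 went from 0.18 to 0.13 with a pseudocount of 1, 0.10 with quantile normalization, 0.070 with rescaling without the top transcript, and 0.14 to 0.23 without a replicate. The loading median became 0.21 in Igf2bp3+/- and 0.30 in Igf2bp3-/- with a mean FPKM above 1, which drops Tpst2. In Igf2bp3+/- it was -0.29 with quantile normalization, -0.34 with rescaling, 0.046 centred and -0.22 to 0.016 without a replicate, against -0.11, and in Igf2bp3-/- it was -0.025 with quantile normalization and -0.13 with rescaling.

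Sign changes under a scaling were Clgn between genotypes in RNA-seq (-0.11 quantile, -0.080 rescaled) and in TE (-0.027 centred), Prss37 between genotypes in RNC-seq (-0.011 centred, -0.034 quantile, -0.011 rescaled), and in Igf2bp3+/- loading Prss37 (-0.035 quantile, -0.017 rescaled) and Calr3 (-0.010 rescaled). Leaving out single replicates took differences across 0 in RNA-seq between genotypes for Clgn (-0.039 to 0.087), Tpst2 (-0.059 to 0.29), Ace (-0.12 to 0.087) and Prss37 (-0.11 to 0.093), in RNC-seq for Prss37 (-0.058 to 0.21), and in TE for Clgn (-0.045 to 0.30), Pdilt (-0.16 to 0.22), Tex101 (-0.21 to 0.0062), Ly6k (-0.31 to 0.035) and Prss37 (-0.15 to 0.28). Over the whole table, centring moved the median log2 difference by -0.12 in RNC-seq, -0.13 in TE and 0.16 in Igf2bp3+/- loading, and rescaling moved it by -0.11 in RNA-seq between genotypes, -0.20 in Igf2bp3+/- loading and -0.19 in Igf2bp3-/- loading. The share of calls that were higher went from 76.9% to 62.3% (rescaled) in RNA-seq, from 68.2% to 46.2% (centred), 41.7% (quantile) and 53.3% (rescaled) in RNC-seq, from 42.5% to 55.9% (centred) and 29.3% (rescaled) in Igf2bp3+/- loading, and from 48.2% to 27.3% (rescaled) in Igf2bp3-/- loading. Genes called in RNA-seq went from 52 to 31 with no filter, 158 under the unadjusted log2 criterion and 9 to 24 without each of 5 of the 6 libraries. In RNC-seq they went from 22 to 2 with no filter, 13 centred, 12 quantile, 1 with no trend, 48 in the shared fit, 188 under the unadjusted log2 criterion, and 0 to 12 without each of 5 libraries, 0 being without Igf2bp3-/- replicate 1. In TE they went from 1 to between 0 and 2 under the other settings and 196 under the unadjusted log2 criterion. Loading calls went from 7834 to 1633 under that log2 criterion and to 4885 and 5176 without Igf2bp3+/- replicates 1 and 3, and from 3880 to 585, and to 3 and 1 without Igf2bp3-/- replicates 1 and 3. Leaving out replicates was not run for the further lists. Depth is unknown, so no limit from counting could be given.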
